A study of Macaca fascicularis with 20 samples.

Results

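The miR-17 and miR-106 clusters were described here through 8 miRNA names, miR-17, miR-18b, miR-19a, miR-19b, miR-20b, miR-93, miR-106a and miR-106b, chosen by name (mir-17, mir-18b, mir-19a, mir-19b, mir-20b, mir-93, mir-106a and mir-106b in the files) from the 828 names that both deposited tables list. Each name has a count for the 5p and for the 3p arm of its hairpin, so that the 8 names gave 16 of 1656 arms. All 16 passed the filter on low counts, which kept 1139 arms in all, and 12 of the 16 reached an average of 10 CPM, the count scaled to sequencing depth.

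Small RNA had been sequenced from laser-microdissected fetal visual cortex of the crab-eating macaque, Macaca fascicularis, without any genetic change or treatment named in the labels. The ventricular zone (VZ) lines the ventricle and holds dividing radial glia, the outer subventricular zone (OSVZ) is the germinal layer above it that is much enlarged in primates, and young neurons settle in the cortical plate (CP). All 3 were taken in areas 17 and 18, and in area 17 the innermost (OSVZ_17int) and outermost (OSVZ_17ext) stretches of the OSVZ were cut separately, which gave 7 regions. Each region had 2 libraries, 1 from embryonic day 80 (replicate 1, set 1) and 1 from embryonic day 79 (replicate 2, set 2), so that VZ has 4 libraries, OSVZ 6 and CP 4. The labels do not say how many animals a set holds, and the spread behind every p-value may therefore be partly technical.

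Libraries held between 3603478 and 9517217 counts (median 6729539), and the 16 arms took 0.815% to 2.76% of them. The layers carried known markers of their cells in part. miR-92b-3p, known from cortical progenitors, was at 25498 CPM or more in VZ, at 13464 CPM or more in OSVZ and at 1082 CPM or less in CP, and the neuronal miR-138-5p was at 1952 CPM or more in CP and at 573 CPM or less in VZ. The neuronal miR-124, by contrast, had counts at or near 0 in every layer, with at most 19 counts of miR-124-3p in any CP library. As annotation and read assignment are not given, a gap in how miR-124 was counted cannot be told apart from its absence. The progenitor list as a whole, miR-92b with miR-9, did not separate the layers either. It summed to 52463 to 124150 CPM in VZ, 31224 to 86835 CPM in OSVZ and 30727 to 126770 CPM in CP. VZ_18 replicate 1 stood apart in its red cell arms, with 655 counts of miR-144-5p where no OSVZ or CP library had more than 11. The comparisons were also run without VZ_18 replicate 1 and VZ_17 replicate 2, each alone and both together.

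The members come from 3 polycistronic transcripts, which in humans are the miR-17-92 host gene (miR-17, miR-19a and 1 copy of miR-19b), the X-linked miR-106a-363 cluster (miR-106a, miR-18b, miR-20b and the other copy of miR-19b) and an intron of the replication licensing gene MCM7 (miR-106b and miR-93). The 5p arms of miR-17, miR-20b, miR-93, miR-106a and miR-106b share a seed and are known to repress the cell cycle inhibitor p21 and regulators of the E2F pathway. The 3p arms of miR-19a and miR-19b share another seed, while the seed of miR-18b-5p is distinct from both. The clusters are induced by MYC and E2F factors, and in the mouse cortex miR-17-92 is known to sustain the expansion of neural progenitors. The mature arms within a seed group differ by few bases. How reads that match several of them were assigned is not known from the labels, and counts of miR-17, miR-20b and miR-106a, or of miR-19a and miR-19b, may have been split or shared.

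miR-17-5p was by far the most abundant member. Across the 14 libraries it ranked between 9 and 19 among the 1139 arms, with a mean of 9595 ± 3322 CPM (SD, n = 14, scaled by the trimmed mean of M values, TMM). Next came miR-106b-5p at 1674 ± 722 CPM and miR-93-5p at 1502 ± 931 CPM, and then miR-106b-3p (436 ± 145 CPM), miR-93-3p (425 ± 136 CPM), miR-17-3p (344 ± 196 CPM), miR-20b-5p (230.2 ± 122 CPM) and miR-19b-3p (191 ± 179 CPM). The step from miR-17-5p to miR-106b-5p and that from miR-93-5p to miR-106b-3p were larger than the SDs of both arms, and the other neighbours named here differed by less than their SDs. miR-18b-5p, miR-106a-5p, miR-19a-3p and miR-19b-5p had means between 48.1 and 118 CPM. The other 4 arms, miR-20b-3p, miR-18b-3p, miR-106a-3p and miR-19a-5p, had means between 1.61 and 8.42 CPM and had 0 counts in 1 to 3 libraries each.

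Within the 5 member arms that share the miR-17 seed, miR-17-5p supplied between 59.5% and 84.4% of the counts, with a median of 73.3%. Other names with that seed are not counted in these shares. miR-106b-5p followed with a median of 12.5% (5.32% to 20.7%) and miR-93-5p with 10.1% (3.09% to 21.8%). The X-linked pair was minor, miR-20b-5p with a median of 1.52% and miR-106a-5p with 0.417%. The group summed to 10494 ± 4360 CPM over the 4 VZ libraries (SD), to 14212 ± 4086 CPM over the 6 of OSVZ and to 13957 ± 3374 CPM over the 4 of CP, and the gaps between these means were smaller than the SD of VZ. In the miR-19 group miR-19b-3p gave a median of 71.6% of the counts, and VZ_17 replicate 2, with 32.2%, was the library in which miR-19a-3p was in the majority.

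**Figure D1:**
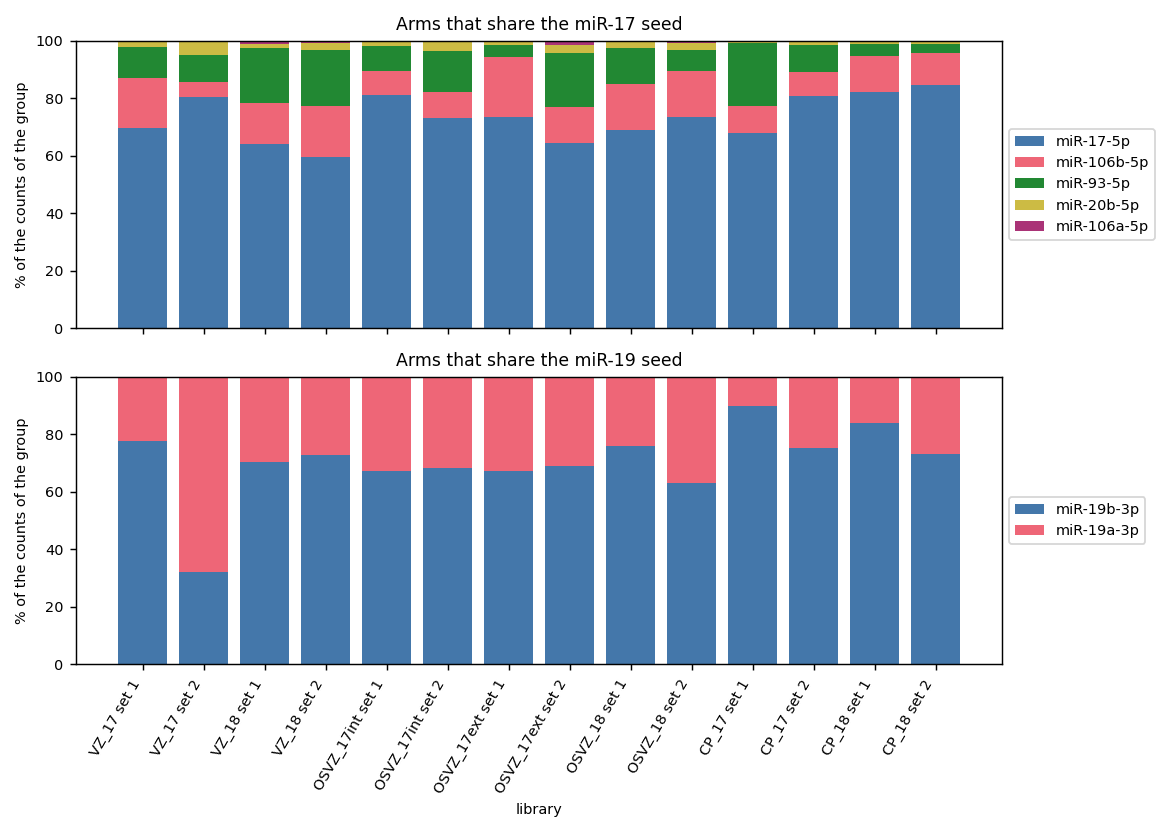
Share of counts, in percent, taken by each arm of the miR-17 seed group (upper panel) and the miR-19 seed group (lower panel) in each of the 14 libraries. Only member arms are counted. miR-17-5p takes 59.5% to 84.4% of its group in every library, and the share of miR-93-5p varies between 3.09% and 21.8%.

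Comparing germinal layers with CP asks whether clusters known for proliferation are higher where cells divide. The most abundant member did not pass in any of these comparisons. miR-17-5p was at 10678 and 5323 CPM in VZ_17 (set 1 and set 2), at 4471 and 7777 CPM in VZ_18, at 16015 and 8062 CPM in OSVZ_17int, at 10880.4 and 11827 CPM in OSVZ_17ext, at 7091 and 8120.0 CPM in OSVZ_18, at 9075 and 13885 CPM in CP_17 and at 7791 and 13328 CPM in CP_18. The groups overlapped, with VZ_18 replicate 1 lowest and OSVZ_17int replicate 1 highest. Its log2 difference from CP was -0.64 ± 0.38 (SE) in VZ and -0.21 ± 0.36 in OSVZ (edgeR quasi-likelihood test, Benjamini-Hochberg adjusted p = 0.339 and 0.856), with 95% intervals of -1.42 to 0.13 and -0.93 to 0.51. The sign for OSVZ turned to positive with library totals (0.016) and without CP_18 replicate 2 (0.0028).

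The passenger arm of the same hairpin, miR-17-3p, was lower in VZ than in CP, in a call that depended on the processing. It was at 217 and 107 CPM in VZ_17 (set 1 and set 2), at 206 and 258 CPM in VZ_18, at 321 and 762 CPM in CP_17 and at 352 and 742 CPM in CP_18, so every VZ library was below every CP library. In OSVZ it ran from 215 to 512 CPM with a median of 282, and the highest of these, OSVZ_17int replicate 1, overlapped CP. The log2 difference was -1.46 ± 0.43 for VZ against CP (edgeR adjusted p = 0.0258) and -1.20 ± 0.34 for both germinal zones against CP (edgeR adjusted p = 0.0189), and for OSVZ against CP it was -0.94 ± 0.39 without passing (edgeR adjusted p = 0.198). Area by area, VZ minus CP was -0.77 to -0.57 in set 1 and -2.83 to -1.52 in set 2, where both CP libraries were higher than in set 1. The call for VZ rested on the processing: it ended without the replicate block (edgeR adjusted p = 0.0686), with DESeq2 size factors (0.0893), with library totals (0.151), with no filter (0.105), without VZ_18 replicate 1 and VZ_17 replicate 2 together (0.274), and without any 1 of VZ_17 replicate 2, VZ_18 replicate 1, VZ_18 replicate 2, OSVZ_17int replicate 2, CP_17 replicate 2 and CP_18 replicate 2 (0.0544 to 0.236). That for both germinal zones ended with DESeq2 size factors (0.0723), with library totals (0.135), with no filter (0.0868), without both VZ libraries (0.0944) and without any 1 of VZ_17 replicate 2, VZ_18 replicate 1, OSVZ_17int replicate 2, OSVZ_18 replicate 2, CP_17 replicate 2 and CP_18 replicate 2 (0.0631 to 0.302).

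miR-17-3p was the only member arm called between VZ and CP by edgeR, 1 of 16 arms where 7.37% of all tested arms were called (2.63% as higher and 4.74% as lower). Between OSVZ and CP 0 of 16 passed, with 6.32% of all arms called (2.11% higher, 4.21% lower), and between both germinal zones and CP 1 of 16 with 9.04% called (2.81% higher, 6.23% lower). Over all arms the split of higher and lower calls was 30 and 54 for VZ with TMM but 37 and 32 with library totals, 24 and 48 for OSVZ but 38 and 34, and 32 and 71 for both germinal zones but 49 and 51. At an unadjusted p under 0.05 the same 3 arms, miR-17-3p, miR-19b-5p and miR-20b-5p, stood out in all 3 comparisons, which share the CP libraries, and this was also the case for 21.3%, 15.5% and 19.7% of all arms. DESeq2 called 3, 2 and 3 member arms, and 15.1%, 11.3% and 14.1% of all arms. For VZ these included miR-20b-3p (DESeq2 adjusted p = 0.0287), with 897 counts in VZ_18 replicate 1 and 0 to 30 in the other VZ libraries. Set against all tested arms, the members' share of calls was near the background. Of the 379 arms that averaged 10 CPM or more, edgeR called 28 as higher and 48 as lower for VZ. For OSVZ these were 24 and 44, and for both germinal zones 32 and 58. Of the 12 member arms at that level 1 was called for VZ, 0 for OSVZ and 1 for both. That is a lower share than among the 379, and the gap was not tested. Levels that did not overlap between groups were found for 1 of 16 arms between VZ and CP (miR-17-3p, where 13.2% of all arms did not overlap), for 1 of 16 between OSVZ and CP (miR-20b-5p, 8.43% of all arms) and for 0 of 16 between both germinal zones and CP (5.53% of all arms).

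**Figure D2:**
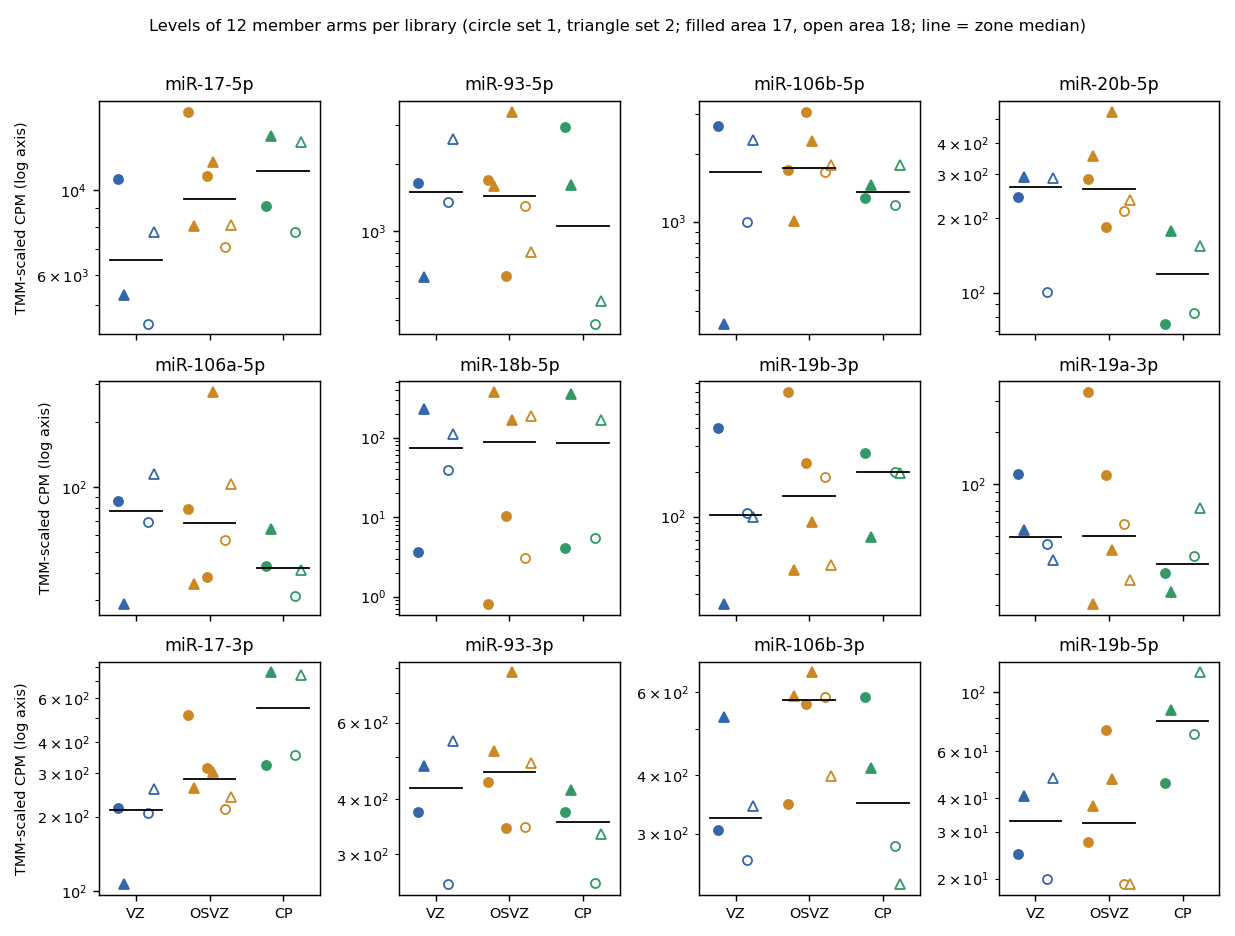
TMM-scaled CPM (log axis) of the 12 member arms that averaged 10 CPM or more, in VZ (4 libraries), OSVZ (6) and CP (4), with the zone median as a line. Circles are set 1, triangles set 2, filled points area 17 and open points area 18. miR-17-3p is lower in every VZ library than in every CP library, miR-20b-5p is higher in every OSVZ library than in every CP library, and miR-18b-5p separates the sets.

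miR-20b-5p, the X-linked relative with the miR-17 seed, had its higher levels in the germinal layers. It was at 243 and 291 CPM in VZ_17 (set 1 and set 2), at 101 and 289 CPM in VZ_18, at 288 and 355 CPM in OSVZ_17int, at 184 and 535 CPM in OSVZ_17ext and at 214 and 236 CPM in OSVZ_18, against 74.8 and 177 CPM in CP_17 and 83.0 and 153 CPM in CP_18. All 6 OSVZ libraries exceeded all CP libraries, and VZ_18 replicate 1 was the VZ library that did not. Within each set and area, OSVZ exceeded CP in 6 of 6 and VZ exceeded CP in 4 of 4 pairings that share the CP libraries. The log2 difference was 1.26 ± 0.40 for OSVZ against CP, 0.93 ± 0.41 for VZ against CP and 1.09 ± 0.37 for both, none of which passed (edgeR adjusted p = 0.0526, 0.193 and 0.059). The one for OSVZ passed with DESeq2 (adjusted p = 0.00077), DESeq2 size factors (0.0212), library totals (0.016), only arms of at least 10 CPM (0.0084), without VZ_18 replicate 1 and VZ_17 replicate 2 together (0.00428) and without any 1 of the 4 VZ libraries, OSVZ_17int replicate 2 and OSVZ_18 replicate 2 (0.0115 to 0.0498), and over the alternatives its adjusted p ran from 0.00077 to 0.335. For both germinal zones miR-20b-5p passed with DESeq2 (adjusted p = 0.00052). In edgeR it passed there with DESeq2 size factors (adjusted p = 0.017), library totals (0.0106) and only arms of at least 10 CPM (0.00719). It did not without the replicate block (0.21) or with no filter (0.0641). For VZ it passed with DESeq2 (adjusted p = 0.0116), library totals (edgeR 0.0454) and only arms of at least 10 CPM (edgeR 0.0278). With DESeq2 size factors VZ did not pass (edgeR 0.0767). miR-106a-5p, from the same cluster, was at 28.8 to 115 CPM in VZ, 35.5 to 274 CPM in OSVZ and 31.2 to 64.3 CPM in CP, and did not pass (0.87 ± 0.50 for both germinal zones, edgeR adjusted p = 0.336).

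Neither guide arm of the MCM7-hosted pair passed between zones. Over the 4 VZ libraries miR-106b-5p averaged 1577 ± 1083 CPM (SD), over the 6 of OSVZ 1909 ± 695 CPM and over the 4 of CP 1419 ± 260 CPM, and its log2 difference was 0.12 ± 0.43 for VZ and 0.32 ± 0.41 for OSVZ against CP (edgeR adjusted p = 0.915 and 0.806, 95% intervals -0.77 to 0.997 and -0.50 to 1.15). The lowest library was VZ_17 replicate 2 with 352 CPM. The difference for VZ depended on single libraries, at -0.97 without VZ_17 replicate 1, -0.46 without VZ_18 replicate 2, -0.11 without CP_18 replicate 1 and 0.75 without VZ_17 replicate 2. miR-93-5p was at 1549 ± 808, 1571 ± 996 and 1351 ± 1185 CPM in the same zones, with log2 differences of 0.59 ± 0.43 and 0.47 ± 0.40 (edgeR adjusted p = 0.442 and 0.680). The intervals of miR-93-5p, -0.29 to 1.46 and -0.35 to 1.30, are as wide, so that equal levels are not shown. The opposite arms miR-106b-3p and miR-93-3p had log2 differences between -0.03 and 0.51 in both comparisons, and the one of miR-106b-3p for VZ turned to positive in 11 of 21 alternatives, among them DESeq2 size factors and library totals.

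In the miR-19 group, both arms of miR-19b had negative differences from CP, neither past the threshold. miR-19b-3p, the guide arm, had log2 differences of -0.55 ± 0.53 for VZ and -0.50 ± 0.49 for OSVZ (edgeR adjusted p = 0.555 and 0.735). Its sign turned for VZ without VZ_17 replicate 2 (0.020), without CP_18 replicate 2 (0.12) and without VZ_18 replicate 1 and VZ_17 replicate 2 together (0.35), and for OSVZ without CP_18 replicate 2 (0.17). miR-19b-5p was at 19.9 to 47.5 CPM in VZ, 19.1 to 71.8 CPM in OSVZ and 45.6 to 118 CPM in CP. The lowest CP library, CP_17 replicate 1, lay below the highest library of VZ and of OSVZ. Its log2 difference was -1.25 ± 0.59 for VZ, -1.36 ± 0.55 for OSVZ and -1.31 ± 0.47 for both (edgeR adjusted p = 0.216, 0.166 and 0.0776). For both zones it passed with DESeq2 (adjusted p = 0.00657) and with only arms of at least 10 CPM (0.02), in a range of 0.00657 to 0.391 over the alternatives. miR-19a-3p was at 36.6 to 114 CPM in VZ, 20.2 to 339 CPM in OSVZ and 23.7 to 73.0 CPM in CP, and its log2 difference was 0.43 ± 0.58 for VZ and 0.56 ± 0.57 for OSVZ (edgeR adjusted p = 0.698 and 0.749).

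**Figure D3:**
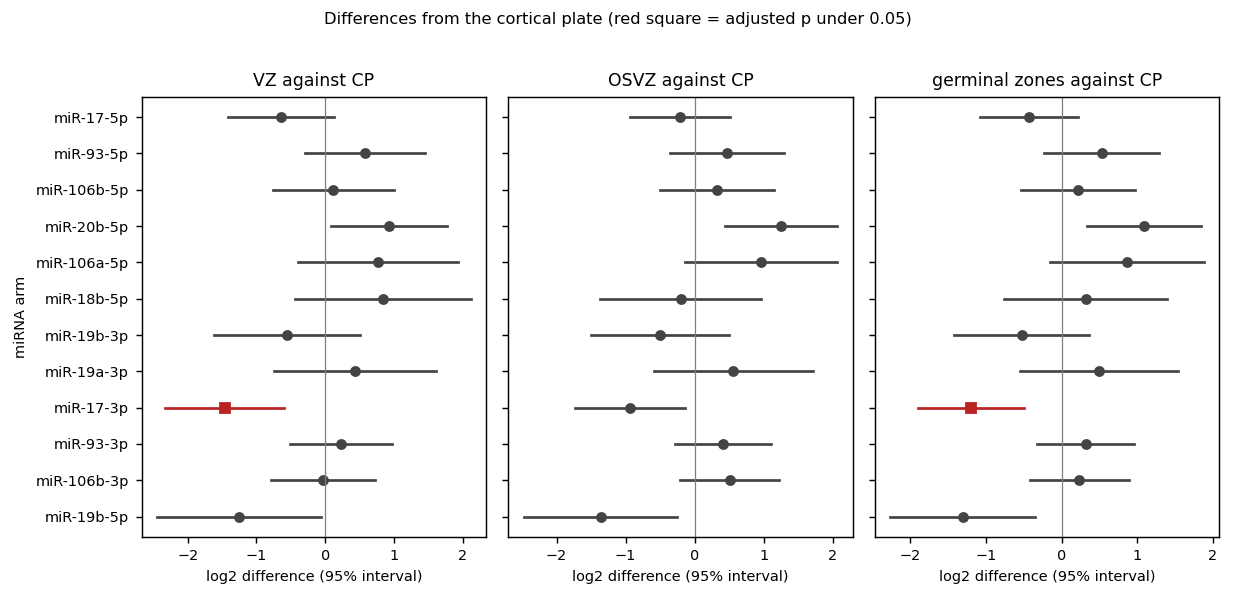
Log2 difference from CP of the 12 member arms that averaged 10 CPM or more, with 95% intervals from the edgeR fit. Positive values are higher in the germinal zone. Red squares mark the calls, miR-17-3p at -1.46 for VZ and at -1.20 for both germinal zones.

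The scaling shifts all arms. With TMM the median over all tested arms was -0.22 for VZ and -0.20 for OSVZ, and with library totals it was 0.21 and 0.035. Over the 379 arms of at least 10 CPM it was -0.12 and -0.16 with TMM. The median over the 12 arms was 0.17 for VZ and 0.37 for OSVZ with TMM, and 0.57 and 0.61 with library totals. Above the median of all arms were 8 of 12 for VZ and 7 of 12 for OSVZ with TMM, and 8 of 12 in both with library totals. Markers of other cells moved in these comparisons as well. For some lists the summed levels below take in more arms than were tested. They cover 12 neuronal, 6 erythroid, 8 mesenchymal and mural, and 4 choroid plexus and pigment epithelium arms. Between VZ and CP 6 of 11 neuronal arms were lower (summed levels of 2219 to 2876 CPM in VZ and 13459 to 21140 CPM in CP) and 2 of 4 radial glia and progenitor arms higher (52463 to 124150 and 30727 to 126770 CPM). Of the choroid plexus and pigment epithelium arms 1 of 3 was lower (209 to 1953 and 4947 to 7254 CPM), and of the oligodendrocyte arms 1 of 4 was higher and 2 lower (115 to 318 and 398 to 766 CPM). Of 12 myeloid and lymphoid arms 2 were higher and 1 lower (6439 to 9052 and 16070 to 35390 CPM), of 7 mesenchymal and mural arms 1 was higher (923 to 1947 and 675 to 1083 CPM), and of 4 erythroid and 2 endothelial arms 0 were called (erythroid 55.9 to 334 and 27.5 to 126 CPM, endothelial 980.3 to 2795 and 1547 to 4505 CPM). The defining blood cell arm miR-142-3p had 0 counts in all CP libraries and at most 70 in VZ. Their part in the members' differences was not tested. In such tissue pieces, fewer cells of a type and less RNA per cell cannot be told apart.

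Both arms are cut from the same hairpin, and the ratio of the 5p to the 3p count needs no scaling between libraries. For miR-17 the ratio was 49.2 and 49.8 in VZ_17 (set 1 and set 2), 21.7 and 30.1 in VZ_18, 31.3 and 30.8 in OSVZ_17int, 34.6 and 39.0 in OSVZ_17ext and 33.0 and 34.0 in OSVZ_18, against 28.2 and 18.2 in CP_17 and 22.1 and 18.0 in CP_18. The OSVZ libraries lay close together and all above CP, while VZ spread over both. On the log2 scale the mean was 5.07 ± 0.12 in OSVZ (SD, n = 6) and 4.41 ± 0.31 in CP (SD, n = 4), a difference of 0.66. An exact two-sided permutation test gave p = 0.00476, the smallest that 6 against 4 libraries allow, and 0.0571 after adjustment over 6 hairpins and both comparisons, which did not pass. With permutation within sets, the replicate block, the adjusted exact p was 0.12. With so few libraries a single hairpin could hardly pass after adjustment in these tests. Not passing therefore says nothing on the ratio. Ratios of 8 of 169 hairpins (4.73%) did not overlap between OSVZ and CP, and miR-17 was the member among them. An unadjusted exact p under 0.05 was found for 17.2% of the 169. For VZ against CP the difference was 0.74 with an exact permutation p of 0.0857, and the ratios overlapped, where 11.2% of hairpins did not overlap.

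In the other hairpins the ratio varied widely between libraries of a zone. miR-93 gave 1.31 to 7.78 and miR-106b 0.664 to 8.70 over the 14 libraries, and VZ_17 replicate 2 had the lowest value of both. The 3p arm led in miR-19a in all libraries, with a highest ratio of 0.144, and in miR-19b in all but VZ_17 replicate 2 (1.59) and CP_17 replicate 2 (1.18), with a median of 0.376. miR-20b ran from 1.20 in VZ_18 replicate 1 to 4299 in VZ_17 replicate 2, whose 3p arm had 0 counts (a pseudocount of 0.5 was added). For miR-18b, miR-19b, miR-20b, miR-93 and miR-106b the adjusted exact permutation p was 0.966 or 0.967 in both comparisons.

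**Figure D4:**
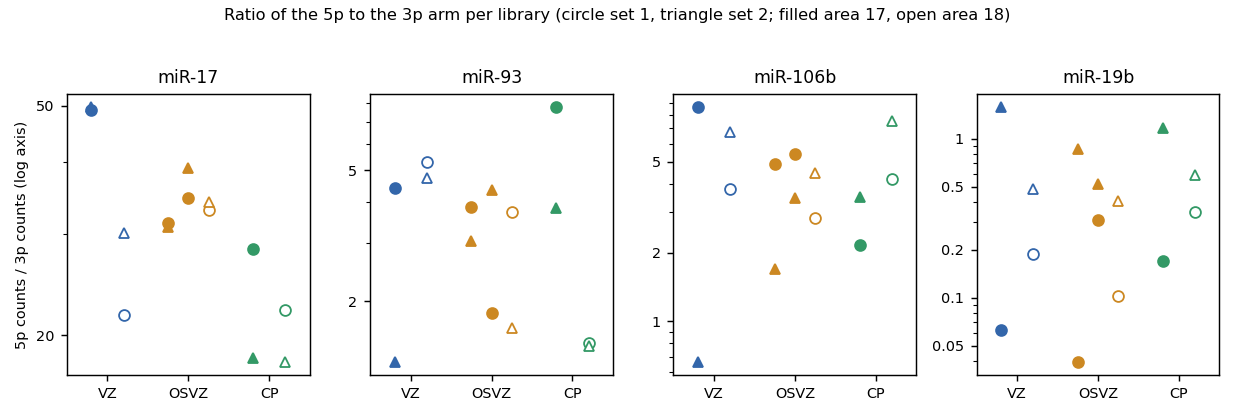
Ratio of 5p to 3p counts (log axis) per library for 4 hairpin names, by zone. The ratio of miR-19b may pool both of its copies. Circles are set 1, triangles set 2, filled points area 17 and open points area 18. For miR-17 the OSVZ libraries lie between 30.8 and 39.0 and the CP libraries between 18.0 and 28.2.

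Between the germinal layers, OSVZ against VZ, 0 of 16 member arms passed by edgeR and by DESeq2, and 0 had an unadjusted p under 0.05, where 0.0878% of all arms were called by edgeR and 9.92% had an unadjusted p under 0.05. Levels of 2.11% of all arms did not overlap between OSVZ and VZ, and those of all 16 members overlapped. The smallest p belonged to miR-18b-5p (-1.04 ± 0.59, edgeR adjusted p = 0.511). The log2 difference was 0.43 ± 0.36 for miR-17-5p and 0.53 ± 0.39 for miR-17-3p, with 95% intervals that include 0. For the inner against the outer OSVZ of area 17, 0 of 16 arms passed by edgeR or DESeq2 and 0 had an unadjusted p under 0.05, with 0% of all arms called by edgeR and 4.04% at an unadjusted p under 0.05. Libraries of 1 region differed here, as for miR-106a-5p with 38.6 and 274 CPM in OSVZ_17ext and 78.9 and 35.5 CPM in OSVZ_17int.

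The samples also allow areas 17 and 18 to be compared, within the germinal zones and within CP. In CP, miR-93-5p was at 2921 and 1612 CPM in area 17 (set 1 and set 2) and at 384 and 488 CPM in area 18. The areas did not overlap, which held for 7 of 16 member arms (miR-93-3p and miR-106b-3p among them) and for 37% of all arms. The log2 difference of 2.39 ± 0.64 had an unadjusted p of 0.000698 and did not pass over all arms (edgeR adjusted p = 0.265), where 0% were called and 3.16% had an unadjusted p under 0.05. It passed with no filter (edgeR adjusted p = 0.0406), without VZ_17 replicate 1 (0.00211), without VZ_17 replicate 2 (0.00185) and without VZ_17 replicate 2 and VZ_18 replicate 1 together (0.000748), in a range up to 1. In the germinal zones the area difference of miR-93-5p was 0.0024 ± 0.40, and the difference between these differences was -2.39 ± 0.74 (edgeR unadjusted p = 0.00282, adjusted p = 0.753, where 3.51% of all arms had an unadjusted p under 0.05), which passed without VZ_17 replicate 1 (edgeR adjusted p = 0.00173).

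The other products of the MCM7 transcript had smaller area differences in CP, with intervals that include 0. In CP, miR-93-3p was at 375 and 419 CPM in area 17 against 257 and 334 CPM in area 18 (0.45 ± 0.52), miR-106b-3p at 586 and 414 against 282 and 234 CPM (0.96 ± 0.53), and miR-106b-5p at 1269 and 1445 against 1187 and 1773 CPM (-0.14 ± 0.61), none of which passed (edgeR adjusted p = 0.994 each). In the germinal zones 0 of 16 arms passed by edgeR or DESeq2 (0% of all arms called by edgeR) and 1 had an unadjusted p under 0.05, the low miR-18b-3p, as had 9.04% of all arms. The median over all arms was -0.22 there with TMM and -0.52 with library totals, and 11 of the 12 arms lay above it under all 3 scalings. The 379 arms of at least 10 CPM, to which the 12 belong, had a higher median of -0.042 with TMM. Below that median were miR-106a-5p (-0.14), miR-106b-5p (-0.073) and miR-18b-5p (-0.74), and the other arms of the 12 lay above it. Over all 7 regions at once, 0 of 16 arms passed by edgeR (5.18% of all arms did). An unadjusted p under 0.05 was found for 3, miR-93-5p, miR-17-3p and miR-20b-3p, and for 15.4% of all arms. DESeq2 called 3 (miR-19b-5p, miR-20b-5p and miR-20b-3p), with 13.4% of all arms. miR-20b-3p was at 83.6 CPM in VZ_18 replicate 1 and at 8.425 CPM or less in all other libraries.

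Some members differed between the sets in every region. miR-18b-5p had 4 to 421 counts (0.809 to 39.2 CPM) in the 7 libraries of set 1 and 758 to 2953 counts (110.0 to 373 CPM) in those of set 2. No library of set 1 reached the lowest one of set 2. The median log2 difference of set 2 minus set 1 was 5.79 over the regions (1.48 to 8.39), a size that 98.2% of the 379 arms with at least 10 CPM did not exceed. miR-19b-3p went the other way, at 107 to 699 CPM in set 1 and 25.6 to 199 CPM in set 2, lower in set 2 in 7 of 7 regions with a median of -1.88. miR-20b-5p (median 0.88) and miR-93-3p (median 0.38) were higher in set 2 in 7 of 7 regions. With these, 4 of the 12 arms kept 1 direction in all regions, as did 14% of the 379 arms (3.69% higher and 10.3% lower in set 2). The sets differ in embryonic day, and anything else that differed between them cannot be told apart from it. The contrasts between regions carried the set as a block.

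**Figure D5:**
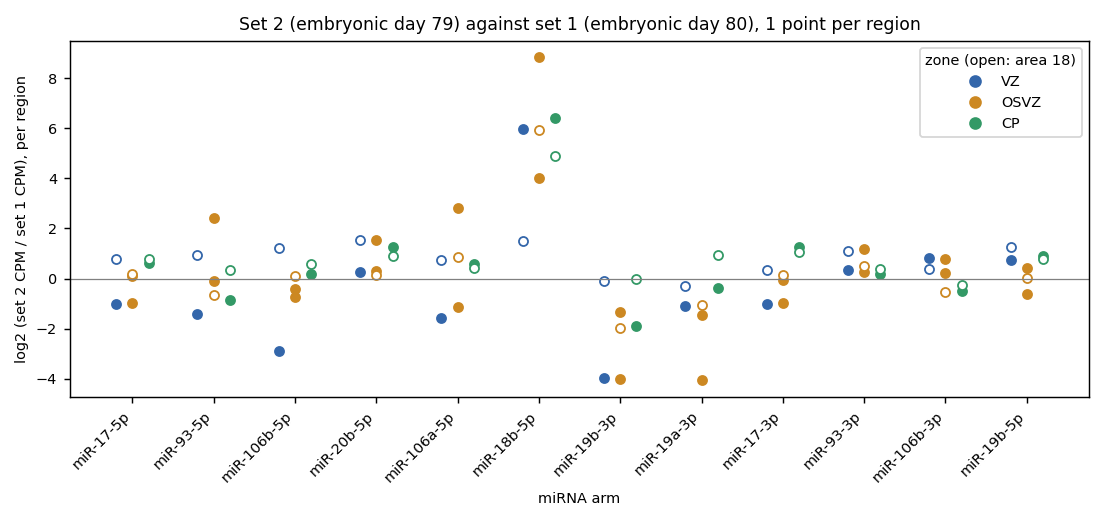
Log2 ratio of the CPM in set 2 (embryonic day 79) to that in set 1 (embryonic day 80) in each of the 7 regions, for the 12 member arms that averaged 10 CPM or more, with no count added. Colours give the zone and open points area 18. All points of miR-18b-5p lie above 0 and all of miR-19b-3p below 0.

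The members were also compared with each other across the 14 libraries, after each set's mean was taken out. These correlations are descriptions, as the points share 7 regions, sequencing depth and scaling. Of the 28 pairs of the 8 leading arms 20 were above 0, with a median Pearson r of 0.234 where the median of all pairs of the 379 arms was 0.0131. miR-17-5p and miR-19b-3p had the highest value (r = 0.853). The MCM7 pair miR-93-5p and miR-106b-5p had r = 0.272. miR-18b-5p had a negative r with each of the other 7 arms, from -0.667 with miR-19b-3p to -0.189 with miR-93-5p. In set 1 its counts were low, with 4 in OSVZ_17int replicate 1 and 421 in VZ_18 replicate 1 as the extremes. These libraries were also the highest and the lowest of miR-17-5p, and OSVZ_17int replicate 1 was the highest of miR-19b-3p. How far the r values here rest on these libraries was not tested.

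Among the 367 arms of other names with at least 10 CPM, those most like miR-17-5p were miR-15a-5p (Pearson r = 0.885), miR-301b-3p (r = 0.835), miR-7-5p (r = 0.834) and miR-195-5p (r = 0.810). For miR-19b-3p they were miR-301b-3p (r = 0.861), miR-148b-3p (r = 0.844), miR-497-5p (r = 0.825) and miR-30e-3p (r = 0.818). For miR-106b-5p they were miR-9-3p (r = 0.879), miR-497-5p (r = 0.865), miR-340-5p (r = 0.854) and miR-15a-5p (r = 0.825). Spearman's rho for these arms lay between 0.692 and 0.890 over the 14 libraries. miR-15a-5p, miR-195-5p and miR-497-5p belong to the miR-15 and miR-16 family, known for restraining the cell cycle.

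Partners transcribed with the members were read from a list of 5 names, of which the tables hold miR-25 (with miR-106b and miR-93) and miR-363 (with miR-106a). The others, miR-18a, miR-20a and miR-92a, are not analysed here. Of their 4 arms 0 passed by edgeR in VZ, OSVZ or both against CP, and at an unadjusted p under 0.05 there were 0 for VZ and, for OSVZ and for both zones, miR-25-3p and miR-25-5p (15.5% and 19.7% of all arms). miR-25-3p, a guide arm with the seed of miR-92, averaged 2791 ± 1456 CPM over the 4 VZ libraries (SD), 4712 ± 2377 CPM over the 6 of OSVZ and 2024 ± 803 CPM over the 4 of CP, with a log2 difference of 1.14 ± 0.38 for OSVZ against CP (edgeR adjusted p = 0.0729). Relatives of the miR-17 seed known from embryonic stem cells and placenta (the miR-302, miR-372, miR-373, miR-519, miR-520 and miR-526b names) gave 15 tested arms with a mean of at most 6.19 CPM, and 0 were called by edgeR in the 3 comparisons with CP.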

How the data were processed

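Per the labels' protocols, RNA was extracted from laser-cut pieces with a column kit, and small RNA libraries were sequenced on SOLiD. The authors deposited raw read counts per miRNA name and arm. Aligner, build, miRNA annotation and the handling of reads with several matches are not given in the sources used here. Each table was matched to a set through its spelling of region names and the regions present. A further 12 value columns (6 libraries) match no label and were not used, so 6 of the 20 labelled samples are not analysed here.

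The 828 names in both tables (of 861 and 868) were kept. Arms were filtered with filterByExpr by region (1139 of 1656 arms, 99.99% of counts), scaled (TMM) and fitted in edgeR 4.0.16 (R 4.3.3) with region and set as terms, which left 6 residual degrees of freedom, and p-values were adjusted by Benjamini-Hochberg over 1139 arms with a threshold of 0.05. In OSVZ both areas had equal weight, area 17 as the average of its parts. The embryonic day in the labels gives the pairing of a set. Deviations from region means correlated within sets (21 pairs of regions, median r 0.309, range 0.0351 to 0.564). Ratios were log2 of (5p + 0.5)/(3p + 0.5) in hairpins with a median of at least 10 counts in both arms. Log2 CPM used a prior count of 2. The alternatives were DESeq2 1.42.0, other scalings and filters, no block, and libraries left out. The fit was tested on simulated data. Counts of PCR-amplified reads are not independent molecules.

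Member arms with at least 10 CPM are given by library or range, all others by range. Likeness names the 4 arms of highest r for 3 members. The members and lists were chosen with earlier results of these data known. The design had been written for all labelled samples and was fitted to 14 libraries.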

Additional observations from a re-analysis of the deposited data

Results flagged for a closer look

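In 48 groups of libraries (16 arms in 3 zones) the highest or lowest library was compared with the others, and Dixon's test flagged 5. The test was run on CPM without logs and assumes normally spread values, which CPM need not be, so no chance rate is given. The share flagged over all arms was not computed, and the 5 are no result about the members. In OSVZ_17int replicate 1, 3 member arms were high: miR-17-3p at 512 CPM (215 to 314 CPM in the other OSVZ libraries), miR-19a-3p at 339 CPM (20.2 to 112 CPM) and miR-19b-3p at 699 CPM (43.3 to 232 CPM). miR-106a-5p was at 274 CPM in OSVZ_17ext replicate 2 (35.5 to 103 CPM in the others). miR-20b-3p had 897 counts and 83.6 CPM in VZ_18 replicate 1, against 0 to 5.16 CPM in the other VZ libraries. That library also holds the high red cell arms, whose part in this value was not tested.

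For 2 of the 12 member arms of at least 10 CPM, VZ minus CP had opposite signs in the sets in both areas. The difference between sets was not tested. How many of all arms have this pattern was not computed, so the 2 are no result about the members. The set 1 median minus the set 2 median was -0.97 for miR-106b-3p (set 1 -0.94 to -0.099, set 2 0.36 to 0.55). It was -0.45 for miR-93-3p, whose values in set 1 were close to 0 (both -0.0051 or -0.0052).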

How the results depend on the processing

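With 14 libraries, 6 residual degrees of freedom and 2 libraries per region, the design limits what can be called. The filter at 10 CPM tests fewer arms, so its counts below have another base. Where no count over all arms stands beside a count of member calls, a rise is no result about the members. Counts of member calls moved with the processing, and the cause was not tested. A call could also pass from 1 arm to another. For both germinal zones miR-17-3p, lower there, no longer passed with DESeq2 size factors (edgeR adjusted p = 0.0723) or library totals (0.135). miR-20b-5p, higher there, came to pass with both (0.017 and 0.0106). For VZ with library totals miR-17-3p also dropped out (0.151) and miR-20b-5p passed (0.0454). For VZ against CP the 1 member call became 0 without the replicate block, with DESeq2 size factors and with no filter, 3 with DESeq2, 2 with only arms of at least 10 CPM and 2 without VZ_18 replicate 1 and VZ_17 replicate 2 together, and the 84 calls over all arms became 53 without the replicate block and 172 with DESeq2. For OSVZ against CP the 0 member calls became 1 with DESeq2 size factors, 1 with library totals, 2 with DESeq2, also 2 when arms under 10 CPM were dropped, and 1 without both VZ libraries, and the 72 over all arms became 129 with DESeq2 and 125 without both VZ libraries. For both germinal zones against CP the 1 member call became 3 with DESeq2, 0 with no filter, 3 when arms under 10 CPM were dropped and 3 without both VZ libraries, and the 103 over all arms became 161 with DESeq2. For OSVZ against VZ the 1 call over all arms became 0 without the replicate block, 0 with DESeq2 size factors, 0 with library totals, 27 with DESeq2, 3 when arms under 10 CPM were dropped and 2 without both VZ libraries.

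For inner against outer OSVZ the 0 calls over all arms became 2 with DESeq2 and 6 without both VZ libraries. For the areas in germinal zones they became 2 with library totals, 26 with DESeq2, 9 with no filter and 1 without both VZ libraries, and in CP 8 with DESeq2, 3 with no filter and 3 without both VZ libraries, with 1 member call each with no filter and without both VZ libraries. For the difference between these area differences the 0 became 1 with no filter and 2 without both VZ libraries. Over all regions the 0 member calls became 3 with DESeq2, 1 with no filter and 1 without both VZ libraries, and the 59 over all arms became 26 without the replicate block, 153 with DESeq2 and 98 without both VZ libraries.

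Leaving out 1 library at a time gave 0 to 1 member calls and 53 to 120 over all arms for VZ against CP, 0 to 1 and 44 to 100 for OSVZ against CP, 0 to 1 and 68 to 126 for both zones against CP, 0 to 24 over all arms for OSVZ against VZ, 0 to 1 for inner against outer OSVZ and 0 to 30 for the areas in germinal zones. In CP it gave 0 to 1 member calls and 0 to 3 over all arms, for the difference of areas 0 to 1 and 0 to 13, and over all regions 0 to 3 and 45 to 125. Where this left a region with 1 library, that library was assumed to vary like the others. Among 38 differences of member arms (the 12 arms against CP in 3 comparisons, and the area results of miR-93-5p), 12 changed sign under at least 1 alternative, in 37 values in all, none of them called. In one of these miR-93-5p, VZ against CP, changed sign without VZ_17 replicate 1 (-0.015) in a range of -0.015 to 1.03, and without both VZ libraries it passed at 1.29 (edgeR adjusted p = 0.0214), as did miR-106a-5p for both zones at 1.26 (0.047). Of the other values, 705 kept direction and side of the threshold, 35 came to pass and 21 no longer passed. No ratio passed, where the smallest exact p of a single hairpin hardly could after adjustment, so that this says nothing on stability.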

Other observations

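In OSVZ_17int replicate 1 the arms miR-93-5p and miR-106b-5p have the same count, 8342, noticed after the values were seen. Over the 14 libraries, 13 pairs of arms with at least 1000 counts have equal counts within a library, in 8 libraries, 3 of them in this one.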
